A study of Mus musculus with 29 samples.

Results

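Voltage-gated sodium channels open when a neuron is depolarized and carry the inward current of the action potential. Each channel is 1 large pore-forming alpha subunit, which senses voltage and also closes itself again by inactivation, together with small beta subunits that change gating and membrane expression and act as adhesion molecules. In rodent forebrain Scn3a is known as the gene of immature neurons, Scn2a as that of early and unmyelinated axons, Scn1a as a gene of inhibitory interneurons in particular, and Scn8a as the main alpha subunit of mature axon initial segments and nodes.

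The 7 genes described here, out of 48709 identifiers in each count table, are 4 that encode alpha subunits (Scn1a for Nav1.1, Scn2a for Nav1.2, Scn3a for Nav1.3 and Scn8a for Nav1.6) and 3 that encode beta subunits (Scn2b, Scn3b and Scn4b). They were chosen by symbol, and all 7 were found in the tables by their Ensembl identifiers. RNA was sequenced in 29 libraries from 3 experiments in which microRNA-99b-5p was inhibited by an LNA oligonucleotide, called anti-miR-99b, or a scrambled sequence, called sc-control, was given. In the first, 3-month-old male C57BL/6J mice received either oligonucleotide in lipid nanoparticles into the prefrontal cortex (PFC) of both sides, and PFC tissue of one side was taken 5 days later (3 anti-miR-99b and 3 sc-control libraries). In the second, microglia from CD1 pups of postnatal day 1 were treated for 2 days (4 and 4 libraries). In the third, such microglia, treated beforehand for 48 h, were added to cortical neurons from CD1 embryos of day 17.5, and RNA of the whole co-culture was taken after a further 48 h (7 anti-miR-99b and 8 sc-control libraries). The oligonucleotide was thus given to the microglia alone in the co-culture and to the whole tissue in the PFC.

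Reads counted in genes ranged per library from 24482309 to 36475236 in the PFC, 21324156 to 35013400 in the microglia and 23269839 to 37901110 in the co-culture. The level of miR-99b-5p was not analysed here, since the libraries hold polyadenylated RNA. The summed level of 15 neuron markers was 12803 to 14092 CPM (reads scaled to the library size and its TMM factor) in the PFC, 9458 to 9777 CPM in the co-culture and 213 to 227 CPM in the microglia, where 10 microglia markers summed to 11154 to 11771 CPM. In these bulk samples, fewer cells of a type and less RNA per cell cannot be told apart. The study's methods call each n a biological sample, but the labels do not tie the culture libraries to separate preparations, so p-values there measure the spread between libraries, which may in part be technical.

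Scn1a (ENSMUSG00000064329, chr2:66270778-66440840, minus strand), Scn2a (ENSMUSG00000075318, chr2:65620771-65767447, plus strand) and Scn3a (ENSMUSG00000057182, chr2:65457118-65567627, minus strand) lie in 1 cluster on chromosome 2, and Scn8a (ENSMUSG00000023033, chr15:100869858-101045938, plus strand) lies alone on chromosome 15. All 3 beta genes are on the plus strand of chromosome 9, with Scn2b (ENSMUSG00000070304, chr9:45117782-45130070) and Scn4b (ENSMUSG00000046480, chr9:45138395-45154152) side by side and Scn3b (ENSMUSG00000049281, chr9:40269217-40291618) apart from them. Coordinates are those of GRCm38, the assembly also named mm10. No other annotated gene shared exon bases with any of the 7.

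The alpha subunits are alike in sequence. Over the coding part of the longest coding transcripts of GENCODE M21, the 3 genes of chromosome 2 were 78.4% to 81.5% identical to each other and 69.9% to 71.5% identical to Scn8a.

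This likeness bears on the counts, because a read was 50 bases long. Of all 50-base words in the annotated transcripts of Scn3a, 6.49% also occurred in transcripts of another gene, mostly Scn2a, against 5.76% for Scn2a, 4.03% for Scn1a and 0.0374% for Scn8a. Among the beta genes the share was 1.01% for Scn2b and 0 words for Scn3b and Scn4b. Reads from the shared words cannot be given to 1 gene, so the values of Scn1a, Scn2a and Scn3a are uncertain to that extent and those of Scn8a are nearly free of it.

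The inhibited microRNA is shown with its seed, bases 2 to 8, in capitals, as RefSeq gives it for GRCm38.p6 at chr17:17830194-17830215 on the plus strand.
mmu-miR-99b-5p: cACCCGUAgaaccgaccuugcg
The complement of this seed, TACGGGT, was searched on the sense strand of the longest coding transcript of each gene. It occurred in 0 of the 7 sodium channel transcripts, beside 2.7% of 22029 genes with such a transcript. This says only that these letters are not in those 7 transcripts.

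The alpha composition differed between the control PFC and the control co-culture in all 4 genes. The share of an alpha gene is its reads per kb of exon over the sum for the 4 alpha genes in the same library, so it does not depend on library size. In the 3 sc-control PFC libraries Scn8a had 39.97% ± 1.53 (SD) and Scn2a 37.5% ± 0.814 of the alpha total, followed by Scn1a with 17.8% ± 0.728 and Scn3a with 4.65% ± 0.177. In the 8 sc-control co-cultures Scn2a had 52.0% ± 0.636, Scn3a 22.1% ± 0.434, Scn8a 18.4% ± 0.653 and Scn1a 7.47% ± 0.242.

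From the PFC to the co-culture the share of Scn8a thus differed by -21.5 percentage points and that of Scn1a by -10.4 points, while that of Scn3a was 17.5 points and that of Scn2a 14.4 points higher. No library of one group overlapped the other for any of the 4 shares. The exact permutation test (two-sided) gave p = 0.0121 for each gene, the smallest that 165 splits of 3 and 8 libraries allow, and the Benjamini-Hochberg adjusted p over the 4 shares was 0.0121 too. Cortex against culture, age, strain and preparation changed together, so they cannot be told apart. Since shares add up to a whole, the 4 differences are not independent of each other.

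**Figure D1:**
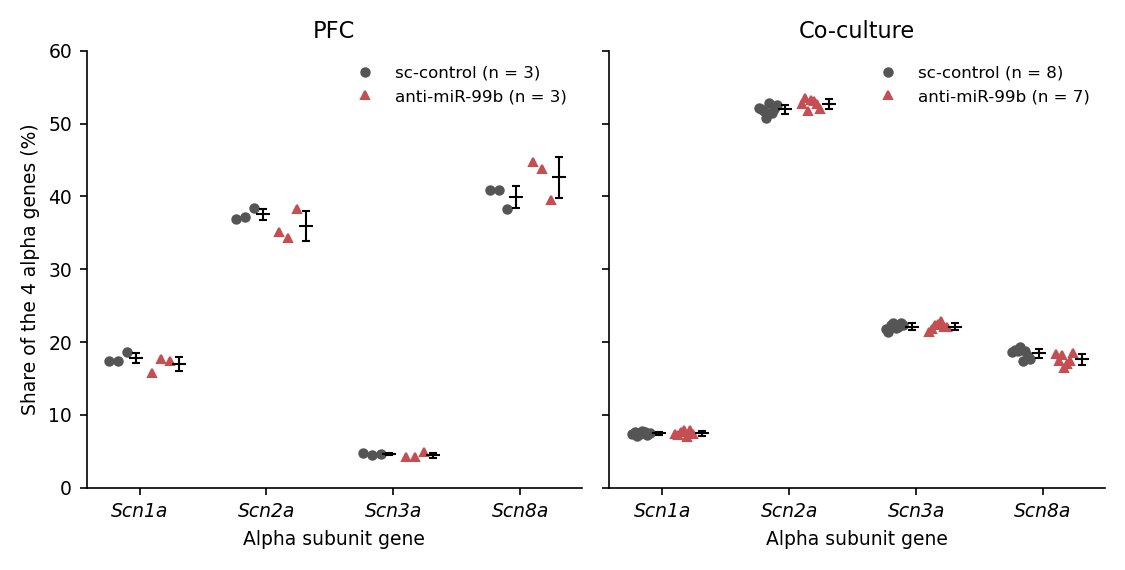
Share of each alpha subunit gene (%, of reads per kb of exon summed over the 4 genes) in every library of the PFC (left) and the co-culture (right), with sc-control as circles and anti-miR-99b as triangles; bars are mean ± SD. Scn8a and Scn2a lead in the PFC, Scn2a and Scn3a in the co-culture, and the 2 treatments lie close together in each.

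The levels behind the shares are given here with TMM factors. Scn3a stood at 3.16 ± 0.101 CPM per kb of exon (SD, n = 3) in the control PFC and at 12.1 ± 0.345 (n = 8) in the control co-culture, a log2FC of 1.94 (SE 0.0379). Scn8a stood at 27.2 ± 1.01 and 10.1 ± 0.25 CPM per kb, a log2FC of -1.43 (SE 0.03). Scn1a stood at 12.1 ± 0.523 and 4.1 ± 0.221 CPM per kb, a log2FC of -1.57 (SE 0.0399). Scn2a stood at 25.5 ± 0.641 and 28.5 ± 1.03 CPM per kb, a log2FC of 0.16 (SE 0.0334), which became 0.99 when libraries were scaled to the neuron markers. The same scaling gave 2.77 for Scn3a, -0.59 for Scn8a and -0.73 for Scn1a, so the size of each difference depends on the scaling.

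With TMM factors, the beta genes Scn4b and Scn2b differed more between the control PFC and the control co-culture than any alpha gene. Scn3b differed less than Scn3a, Scn1a and Scn8a. This ranking by size depends on the scaling. Scaled to the neuron markers, Scn3a (2.77) differed more than Scn2b (-1.39), and Scn3b (1.82) more than Scn1a (-0.73) and Scn8a (-0.59). Scn4b, which binds alpha subunits through a disulphide bridge and supports resurgent current, had 85.4, 119.7 and 149.3 CPM in the 3 sc-control PFC libraries and 0.676 to 1.29 CPM, from 18 to 49 reads, in the 8 sc-control co-cultures, a log2FC of -6.94 (SE 0.149). The parvalbumin gene Pvalb, a marker of fast-spiking interneurons, had a log2FC of -6.73 in the same comparison. The list of 5 parvalbumin interneuron markers did not go 1 way, since 3 were called as lower (Pvalb, Tac1 at -2.61 and Kcnc1 at -1.19) and Erbb4 as higher (1.21), with Lhx6 at 0.81 and a median of -1.19. The part of these cells in the values of Scn4b and Scn1a was not tested. Scn2b, the other disulphide-linked beta subunit here, fell from 63.7 ± 2.24 to 13.6 ± 0.461 CPM per kb, with a log2FC of -2.23 (SE 0.0326). Scn3b, which binds alpha subunits without a disulphide bridge, was at 25.1 ± 0.534 in the PFC and 49.6 ± 0.725 CPM per kb in the co-culture, with a log2FC of 0.98 (SE 0.0291), just under the limit set for a call.

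The call here required a log2FC beyond 1 in either direction besides an adjusted p-value under 0.05 (edgeR's quasi-likelihood test, Benjamini-Hochberg adjustment over 17678 genes). By this rule 5 of the 7 genes were called, Scn3a as higher and Scn1a, Scn8a, Scn2b and Scn4b as lower in the co-culture, with adjusted p-values from 1.3e-22 (Scn2b) to 9.68e-19 (Scn1a). The background was high, as 35.1% of all genes tested were called, 14.7% as higher and 20.4% as lower. Neuron markers themselves differed, 11 of 15 being called with a median log2FC of -1.14. When libraries were scaled to the neuron markers, the median log2FC of all genes moved to 0.82. That fit called 7484 of 17678 genes as higher and 1931 as lower. Of the 7 genes, the calls then were Scn3a (2.77) and Scn3b (1.82) as higher and Scn2b (-1.39) and Scn4b (-6.1) as lower. Scn1a (-0.73) and Scn8a (-0.59) were still lower but no longer beyond the limit, and Scn2a (0.99) stayed just under it. Such a scaling moves the log2FC of all genes by nearly the same amount. The order of the genes from lowest to highest is therefore kept by construction, while their order by size of difference changed.

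**Figure D2:**
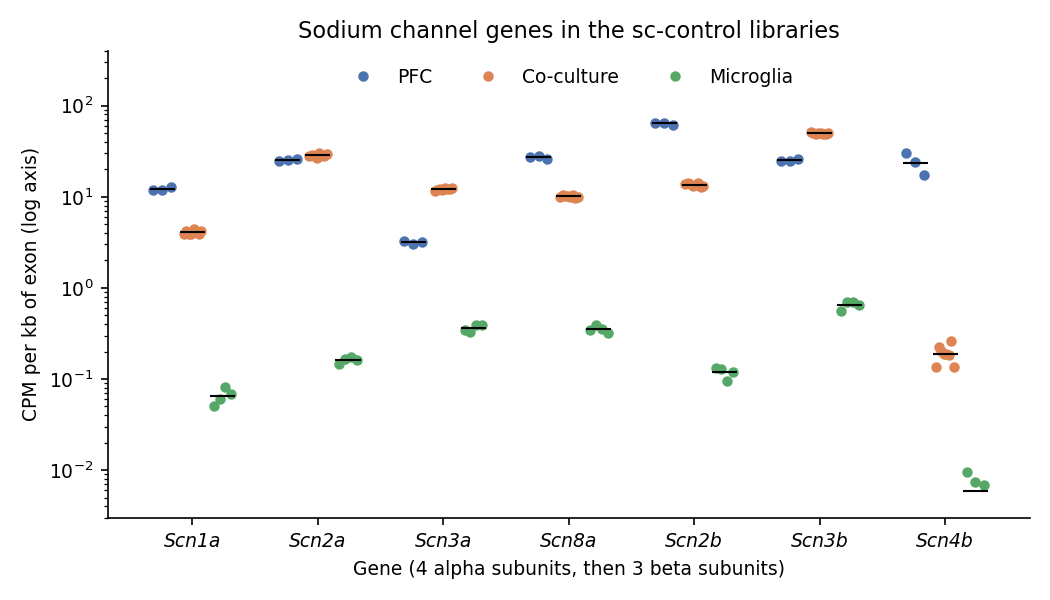
Level of the 7 genes in every sc-control library (CPM per kb of exon, log axis) of the PFC (n = 3), the co-culture (n = 8) and the microglia (n = 4); horizontal lines are means, and 1 microglia library with 0 reads of Scn4b has no point. Scn2b is highest in the PFC, Scn3b in the co-culture and in the microglia.

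By level per kb, the order in the control PFC was Scn2b, Scn8a, Scn2a, Scn3b, Scn4b, Scn1a and Scn3a. The ranges of Scn8a, Scn2a, Scn3b and Scn4b overlapped from each to the next, so their order is not settled by 3 libraries. In the control co-culture the order was Scn3b, Scn2a, Scn2b, Scn3a, Scn8a, Scn1a and Scn4b, with no overlap between any neighbours. Both orders rest on the exon union as the length of a gene. The longest transcript is shorter than that for Scn3a (9560 against 12459 bp) and Scn8a (11436 against 15766 bp). For Scn2b the 2 lengths are equal (4656 bp). The order may thus depend on the length chosen, which was not tested for these levels. The microglia held little of any sodium channel gene described here. There Scn3b stood at 0.649 ± 0.0667 CPM per kb (SD, n = 4), Scn3a at 0.367 ± 0.0338 and Scn8a at 0.35 ± 0.0289, whose ranges overlapped, and Scn4b had 0 or 1 read in each of the 8 microglia libraries. Since the neuron markers were also found there at 213 to 227 CPM, the cells that hold these few sodium channel reads cannot be named.

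The same comparison of controls was made for 40 further genes of the pathway. Of 39 tested, 6 were called as higher and 7 as lower in the co-culture, with a median log2FC of 0.072 beside -0.011 for all genes. Their share of calls is near the 35.1% of all genes called, so neither this count nor those of the lists, each of 4 to 8 genes, is a result about the pathway. Of the other sodium channel genes, 2 of 7 tested were called as higher and 3 as lower. Scn7a, a sodium-sensing channel of glia, was among the lower ones, with 6.26 to 7.05 CPM in the PFC and 0.652 to 1.26 CPM in the co-culture (log2FC -2.90, SE 0.121). The sensory neuron channel Scn11a (log2FC 2.42) rested on 1 to 8 reads in the PFC and 12 to 26 in the co-culture. Scn10a was also called as lower (-1.25), on 6 to 30 and 4 to 11 reads.

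Of the genes that hold channels at the axon initial segment, 1 of 8 was called, the spectrin gene Sptbn4 with a log2FC of -1.69, and of 4 fibroblast growth factor homologous factors, which bind the tail of alpha subunits, Fgf11 was called as higher (1.13). Among 6 genes of channel processing and partners, the phosphatase gene Ptprz1 (2.58) and the collapsin response mediator Dpysl2 (1.39) were called as higher. Among 6 regulators of RNA and transcription, Rest, a repressor known to act on Scn2a and other neuronal genes, was higher (1.09), with 161 to 185 reads in the PFC and 267 to 419 in the co-culture. Among 8 genes of sodium transport, 3 were called and all were lower, among them the sodium-calcium exchanger gene Slc8a2 (-1.28). Under scaling to the neuron markers no named gene turned its sign, but Sptbn4 (-0.85), Slc8a2 (-0.44) and Scn10a (-0.42) fell short of the limit.

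In the co-culture, anti-miR-99b in the microglia came with less Scn8a RNA, and Scn8a was the only one of the 7 genes called. The 7 anti-miR-99b libraries had 141.3 to 152.9 CPM of Scn8a (median 146.2), from 3355 to 4689 reads. The 8 sc-control libraries had 153.2 to 164.2 CPM (median 159.1). Every anti-miR-99b library lay below every sc-control library, although the highest of the first and the lowest of the second nearly touched.

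The log2FC of Scn8a was -0.11 (SE 0.0237), a difference of -7.68% between the mean CPM, with an adjusted p-value of 0.0107 by edgeR's quasi-likelihood test over 16193 genes. The call required a log2FC beyond 0.1 with an adjusted p-value under 0.05. At it 1.4% of all genes tested were called and 0.556% of all genes tested were called as lower, and in 0.278% of all genes the anti-miR-99b group lay wholly below the sc-control group. The exact permutation test on CPM alone (two-sided) gave p = 0.000311, the smallest that 7 against 8 libraries allow. Without any 1 of the 15 libraries the call stayed, with log2FC between -0.12 and -0.11.

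Libraries were sequenced in 4 lanes. Within lane 4 (2 anti-miR-99b and 2 sc-control libraries) the mean log2 difference of Scn8a was -0.12, within lane 5 (1 and 3) -0.079, within lane 6 (1 and 1) -0.17 and within lane 7 (3 and 2) -0.094. With lane as a block the adjusted p-value was 0.0428. From lanes 4 and 7 alone, where both groups have 2 or more libraries, the log2FC was -0.11 but the adjusted p-value 0.251, on 9 libraries.

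**Figure D3:**
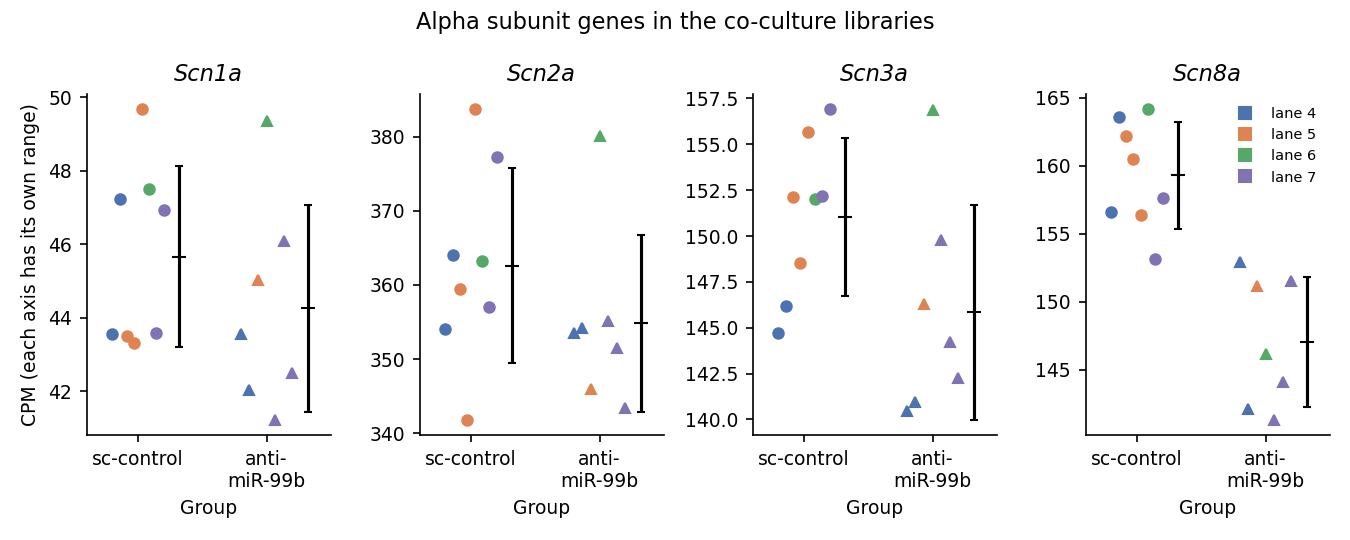
CPM of the 4 alpha genes in every co-culture library, with sc-control (n = 8) as circles and anti-miR-99b (n = 7) as triangles, coloured by sequencing lane; bars are mean ± SD and each axis has its own range, which does not start at 0. The groups do not overlap for Scn8a and overlap for the other three.

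Across the genes tested in the co-culture, the fold change went along with exon length. Scn8a has the longest exon union of the 7, 15766 bp, longer than in 97.9% of the genes tested in the co-culture. When the tested genes were cut into 10 equal classes by exon length, the median log2FC ran from 0.040 in the class of shortest genes to -0.040 in that of the longest, and 75 of the 90 genes called as lower were in the latter, 4.64% of its genes. In that class, 7.18% of genes had a lower log2FC than Scn8a. With the trend over length removed from each library the log2FC of Scn8a was -0.066 (SE 0.0249) and the adjusted p-value 0.326, so the call was lost. That fit called 96 of 16193 genes as higher and 18 as lower, against 137 and 90 with the trend left in. The part of length in the result was not tested further.

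**Figure D4:**
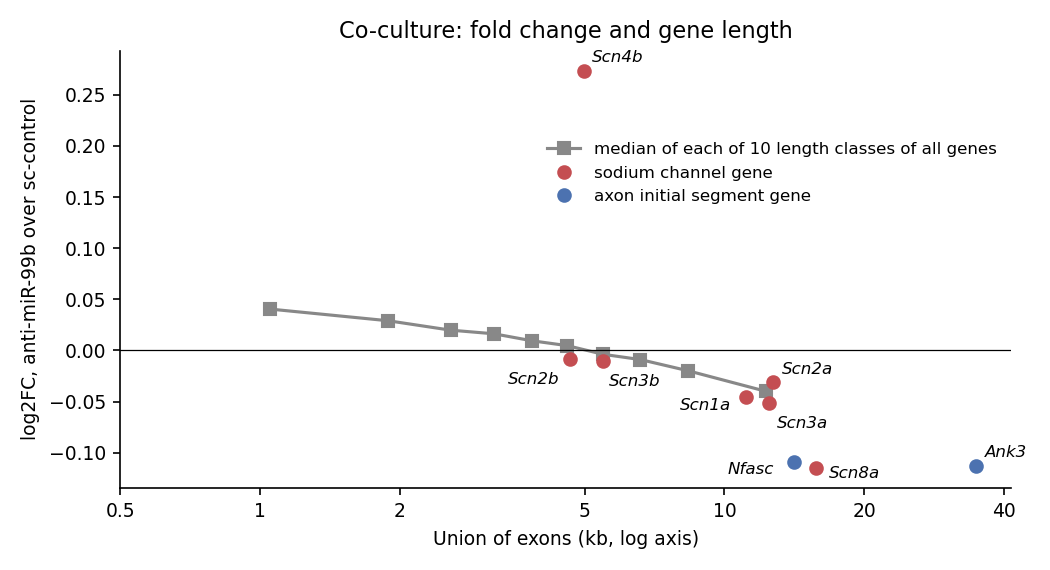
Co-culture log2FC of anti-miR-99b over sc-control against the union of exons (kb, log axis). Grey squares are the median of each of 10 equal length classes of all tested genes, at its median length; red points are the 7 sodium channel genes and blue points Ank3 and Nfasc. The medians fall from 0.040 to -0.040, and Scn8a, Ank3 and Nfasc lie below the median of the longest class.

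The other alpha genes had negative values that did not pass the test. Scn1a had 41.2 to 49.3 CPM (median 43.6) with anti-miR-99b and 43.3 to 49.7 (median 45.3) with sc-control, a log2FC of -0.046 (SE 0.0382). Scn2a had 343.3 to 380.0 CPM (median 353.6) and 341.8 to 383.7 (median 361.3), a log2FC of -0.031 (SE 0.0251). Scn3a had 140.5 to 156.8 CPM (median 144.2) and 144.7 to 156.9 (median 152.1), a log2FC of -0.051 (SE 0.0257). The groups overlapped for each of these 3 genes, all of which are also in the class of longest genes, where the median log2FC was -0.040.

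Neither did the beta genes pass. Scn2b had medians of 63.7 CPM in both groups (log2FC -0.0088, SE 0.028) and Scn3b medians of 270.3 and 271.0 CPM (log2FC -0.010, SE 0.0207). Scn4b had 0.864 to 1.55 CPM with anti-miR-99b and 0.676 to 1.29 CPM with sc-control, from 18 to 49 reads a library, and its log2FC of 0.27 had an SE of 0.156. Adjusted p-values of the 6 genes ran from 0.405 (Scn3a) to 0.931 (Scn2b).

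Within the alpha total, the share of Scn8a was 17.7% ± 0.768 (SD, n = 7) with anti-miR-99b and 18.4% ± 0.653 (n = 8) with sc-control. The difference of -0.794 points had p = 0.0525 by the exact permutation test (two-sided), 0.105 after adjustment over the 4 shares. For Scn2a the difference was 0.751 points, with an exact p = 0.0423 and an adjusted 0.105. Those of Scn1a (0.0335 points) and Scn3a (0.00977 points) were far within the spread. Without sc-control replicate 6 the adjusted values of Scn8a and Scn2a were both 0.0443, and without anti-miR-99b replicate 5 that of Scn2a was 0.048, so single libraries decide on which side of 0.05 these shares fall.

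Of all genes tested in the co-culture, 0.556% were called as lower. Of the 38 further pathway genes tested there, 2 were called, both as lower and both of the axon initial segment. Ank3, which encodes ankyrin-G, the anchor of sodium channels there, had 385.8 to 433.7 CPM (median 399.3) with anti-miR-99b and 417.4 to 456.0 (median 440.3) with sc-control, so the groups overlapped. Its log2FC was -0.11 (SE 0.0248, adjusted p-value 0.0166 in edgeR). Nfasc, which encodes the adhesion molecule neurofascin, had 190.5 to 217.6 CPM (median 205.7) and 212.6 to 230.8 (median 223.0), so its groups overlapped too. The log2FC of Nfasc was -0.11 (SE 0.0262, adjusted p-value 0.0329 in edgeR). Of the 8 genes of this list 6 had negative values, with a median of -0.031.

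Ank3 (34838 bp) and Nfasc (14145 bp) are in the class of longest genes as well, where 4.64% of genes were called as lower. With the length trend removed Ank3 and Nfasc had log2FC of -0.023 (adjusted p-value 0.8) and -0.064 (0.423) in edgeR's test. In the lists of other sodium channels, homologous factors, channel processing, regulators and sodium transport, 0 genes were called by edgeR in the co-culture, while 5 had an unadjusted p-value under 0.05, as had 13.2% of all genes tested. The median over all 38 was -0.019, beside 0.00254 for all genes.

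Cell markers in the co-culture moved in part with the treatment. Of 10 microglia markers 5 were called as higher with anti-miR-99b (C1qa, Tyrobp, Cx3cr1, Trem2 and Csf1r), as were 0.846% of all genes tested. The median log2FC over the list was 0.29, and Itgam alone was lower (-0.24, not called). The summed level of the list was 118.3 to 132.5 CPM against 95.7 to 120.9 CPM in sc-control. The neuron markers summed to 9529 to 9702 CPM with anti-miR-99b and 9458 to 9777 CPM with sc-control, with a median log2FC of 0.0020 and Eno2 called as higher. Scaled to these neuron markers, Scn8a had a log2FC of -0.12 and an adjusted p-value of 0.00465. In the microglia alone, Scn8a stood at only 4.71 to 6.11 CPM.

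In the PFC, none of the 7 genes was called, for which a log2FC beyond 0.2 and an adjusted p-value under 0.1 were needed. All 7 values were negative, as were those of 49.4% of all genes tested and of 11 of 15 neuron markers. By class of exon length, the median log2FC in the PFC ran from 0.047 (shortest) to -0.036 (longest). The longest class held all 4 alpha genes. The part of length or of neuron content in these values was not tested. Of 17364 genes tested there, 0.0864% were called by edgeR, all of them as higher and 0% as lower. With 3 against 3 libraries, the exact permutation test of a single gene cannot give less than p = 0.1.

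Scn1a had 113.0, 118.6 and 130.3 CPM in the anti-miR-99b libraries and 130.9, 133.1 and 141.9 in the sc-control libraries. Scn3b had 114.8, 122.8 and 131.6 CPM against 135.2, 135.6 and 140.5. In these 2 genes all anti-miR-99b libraries lay below all sc-control libraries, as they did in 5.81% of all genes tested. Their log2FC were -0.17 (SE 0.0732) and -0.16 (SE 0.0693), both with an adjusted p-value of 0.649 by edgeR's test. Unadjusted, both were under 0.05 (0.0474 and 0.0481), as were 7.64% of all genes, 2.47% in the lower direction.

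Scn8a, the gene called in the co-culture, had 414.0, 417.9 and 451.4 CPM with anti-miR-99b and 410.5, 435.3 and 440.0 with sc-control in the PFC, a log2FC of -0.00279 (SE 0.0676). The groups overlapped throughout. Scn2a had 262.3, 286.5 and 327.3 CPM against 317.3, 324.2 and 333.5 (log2FC -0.15, SE 0.0841), and Scn3a 31.5, 34.3 and 40.7 CPM against 38.1, 39.5 and 40.6 (log2FC -0.15, SE 0.095). In both of these, anti-miR-99b replicate 3 lay apart from the other treated libraries, within or above the sc-control range. That library and sc-control replicate 4 were sequenced in lane 7, all other PFC libraries in lane 6. Within lane 6 (2 and 2 libraries) the mean log2 differences of Scn2a and Scn3a were -0.23 and -0.26, within lane 7 (1 and 1) -0.027 and 0.042. The part of the lane in these values was not tested further. Without anti-miR-99b replicate 3 the log2FC of Scn2a and Scn3a were -0.24 and -0.26, and without anti-miR-99b replicate 2 they were -0.084 and -0.073, none of them called.

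Scn4b varied most. Its sc-control libraries had 149.3, 119.7 and 85.4 CPM and its anti-miR-99b libraries 83.1, 98.4 and 98.9, so that sc-control replicate 4 fell among the treated. Within lane 6 the mean log2 difference of Scn4b was -0.56, within lane 7, which held that library and anti-miR-99b replicate 3, it was 0.21. The log2FC of -0.34 had an SE of 0.166 and an adjusted p-value of 0.66 in edgeR. With lane as a block the log2FC was -0.31 with an adjusted p-value of 0.409 in edgeR. Without sc-control replicate 4 it was -0.53 with an adjusted p-value of 0.0855 in edgeR, which passes the threshold. That fit called 195 of 17630 genes as higher and 6 as lower, against 15 and 0 of 17364 with all libraries. Without sc-control replicate 2 the log2FC of Scn4b was -0.13 with an adjusted p-value of 0.97 in edgeR. Scn2b had 268.7, 271.4 and 299.0 CPM against 284.7, 302.5 and 303.1, a log2FC of -0.086 (SE 0.069).

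**Figure D5:**
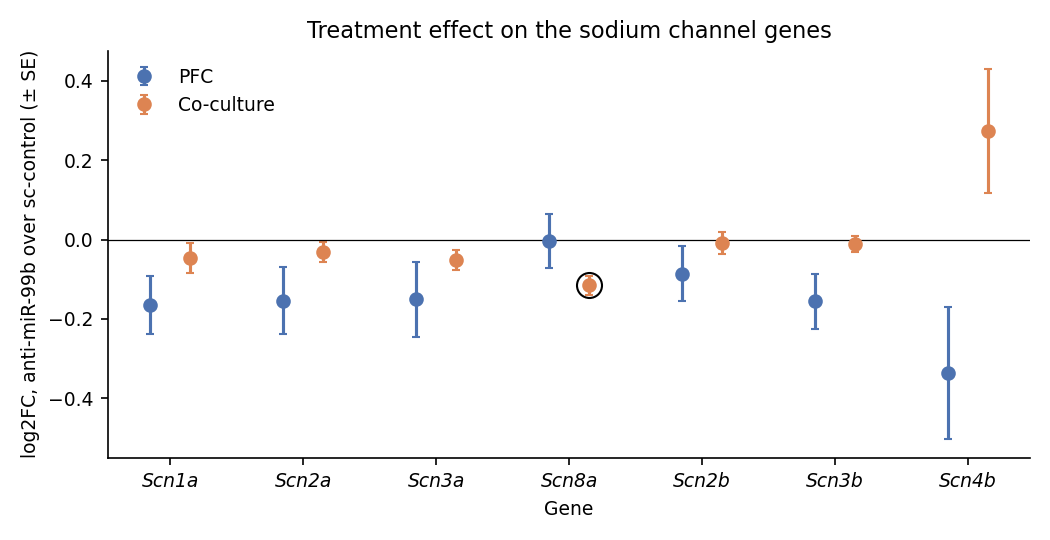
log2FC of anti-miR-99b over sc-control (± SE) for the 7 genes in the PFC (blue) and the co-culture (orange). The circled value, Scn8a in the co-culture at -0.11, is the one called, and the 7 PFC values run from -0.34 (Scn4b) to -0.00279 (Scn8a).

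The shares of the alpha genes in the PFC were 42.6% ± 2.8 (SD, n = 3) for Scn8a with anti-miR-99b against 39.97% ± 1.53 with sc-control, and 35.9% ± 2.09 against 37.5% ± 0.814 for Scn2a. Exact permutation p-values were 0.3 for both and 0.5 for Scn1a and Scn3a, in a design whose smallest p is 0.1. Of 38 further pathway genes tested in the PFC, 0 were called by edgeR and 1 had an unadjusted p-value under 0.05, with a median log2FC of -0.040. Of the microglia markers 9 of 10 were higher with anti-miR-99b there, none of them called, with a median log2FC of 0.26.

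Whether the treatment effect differed between the experiments was tested as an interaction over all 21 libraries of both. No gene of the 7 passed an adjusted p-value of 0.05 in edgeR's test, which 0.448% of 18321 genes did, and 3 had an unadjusted p-value under 0.05, as had 15.4% of all genes. For Scn8a the effect in the co-culture minus that in the PFC was -0.094 (SE 0.0511, adjusted p-value 0.383). The largest was that of Scn4b (0.63, SE 0.276, adjusted p-value 0.269), and that of Scn3b had the lowest p (0.16, SE 0.0507, adjusted p-value 0.137). A call of Scn8a in the co-culture and not in the PFC is therefore not shown to be a difference between them.

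In microglia alone, 6 of the 7 genes had enough reads to be tested and 0 were called by edgeR (log2FC beyond 0.1, adjusted p-value under 0.1), while 0.488% of 14953 genes were called. None of the 6 had an unadjusted p-value under 0.05, as 6.45% of all genes did. Scn8a had 4.71 to 5.61 CPM with anti-miR-99b and 5.00 to 6.11 CPM with sc-control (log2FC -0.083, SE 0.0897), and Scn3a 3.83 to 4.45 and 4.10 to 4.94 CPM (log2FC -0.15, SE 0.0964). Groups overlapped for every one of them, while they did not in 3.44% of all genes tested.

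Over the 15 co-culture libraries, the levels of the alpha genes of chromosome 2 went together, with Pearson correlations of log2 CPM of 0.77 for Scn1a and Scn2a, 0.75 for Scn2a and Scn3a and 0.59 for Scn1a and Scn3a. Scn8a had 0.32 with Scn1a, 0.28 with Scn3a and 0.14 with Scn2a. These are descriptions over libraries of 2 treatment groups, and the first 3 genes also share part of their sequence. Most like Scn8a were Ep300 (0.95), Hivep3 (0.94) and Itsn1 (0.94). Most like Scn1a were Slc7a11 (0.93), Kif5c (0.91) and Zfp106 (0.88), most like Scn2a were Pak3 (0.94), Zfp148 (0.94) and Gm16185 (0.93), and most like Scn3a were ENSMUSG00000043498 (0.96), Tcf4 (0.94) and Ccdc88a (0.93). The beta genes had looser neighbours, led by Mapk1ip1l (0.86) for Scn2b, Cntnap3 (0.87) for Scn3b and A830052D11Rik (0.80) for Scn4b.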

How the data were processed

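Per the labels and the methods of the study, TruSeq polyA libraries were sequenced as 50 bp single reads on a HiSeq2000. The authors aligned reads to mm10 with STAR 2.5.2b, counted them per gene with featureCounts 1.5.1 and deposited raw counts in 3 tables. The annotation release and strand setting are not given in the sources used here. Symbols, coordinates and exon unions came from GENCODE M21 (GRCm38, the same build).

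The deposited counts were tested in each experiment alone with edgeR 4.0.16 in R 4.3.3 (filterByExpr, TMM factors, quasi-likelihood test, Benjamini-Hochberg adjustment over all genes tested). The SE is the size of the log2FC over the square root of F. Co-culture and PFC thresholds are those in the study's main text. The legend of its PFC volcano plot gives stricter ones, and the study states none for microglia. Controls of both experiments were joined by Ensembl identifier. Single values were compared by exact permutation tests in scipy 1.17.1. Alternatives were DESeq2 1.42.0, RLE factors, 2 other filters, a lowess length trend, neuron-marker scaling, lane and replicate blocks, 1 RUVs factor and leaving out each library. Scripts were tested on simulated data.

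The 7 genes and all gene lists were chosen with earlier results of these data known. Besides the 7 genes, the text names each pathway gene called in the co-culture or PFC, up to 2 called genes per direction and list in the control comparison, and the genes with the highest correlation to each member. Scn10a and Slc8a2 were added after their values were seen. Some genes and sequences that this rule covers are not reported here.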

Additional observations from a re-analysis of the deposited data

Results flagged for a closer look

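In 1 group a library stood far from the rest for the level of a sodium channel gene. Scn2a had 380.0 CPM in anti-miR-99b co-culture replicate 7, the only anti-miR-99b library of lane 6, where the other 6 lay between 343.3 and 355.1 CPM. Without that library the log2FC of Scn2a was the lowest of the 15 such values, -0.047, and was still not called.

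In the microglia the share of Scn1a in the alpha total was 10.6% in anti-miR-99b replicate 3, against 7.26% to 7.52% in the other 3 libraries of that group, on 33 reads. Chance alone marks about 1 in 20 groups in this way, and 44 groups were looked at.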

How the results depend on the processing

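In the PFC, 1 of the 7 genes was called (Scn4b, as lower) with no filter on low counts, with the replicate number as a block (log2FC -0.44) and with the crossed pairing of the shared numbers as a block, which was added after seeing the data; leaving out single libraries gave 0 to 1 called gene. These fits called far more of all genes than the 15 as higher and 0 as lower reported, namely 297 and 115 of 31281 with no filter, 475 and 43 of 17436 with the block and 551 and 87 with the crossed pairing. In the co-culture 0 of the 7 genes were called with the length trend removed, with the replicate block (Scn8a -0.081, adjusted p-value 0.342, on 8 libraries) and with lanes 4 and 7 alone, also added after seeing the data. These fits called fewer of all genes than the 137 as higher and 90 as lower of 16193 reported. They called 96 and 18 of 16193 with the trend removed, 70 and 23 of 16214 with the block and 27 and 4 of 16359 with the lanes. DESeq2, RLE factors, both filters, neuron-marker scaling, the lane block and 1 RUVs factor kept the call of Scn8a, with adjusted p-values from 0.000244 to 0.0428. The shared numbers gave no sign of pairing the libraries (correlation of their deviations 0.048 and -0.28 in the PFC, -0.015 to 0.047 in the co-culture, -0.051 and -0.038 in the microglia). With so few shared numbers, these values cannot exclude a pairing. The cause of each change was not tested. The replicate block, the crossed pairing and lanes 4 and 7 alone do not use all libraries, while the lane block does.

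Some values turned their sign. Scn8a in the PFC was 0.037 with the length trend removed and 0.032 scaled to neuron markers, and -0.040 to 0.018 without single libraries. Scn2a was 0.00762 in the co-culture and, from 0.16, -0.00333 in the control comparison with the trend removed. Scn2b in the co-culture was 0.028 with the replicate block, 0.021 with lanes 4 and 7 and -0.020 to 0.011 without single libraries. In the microglia, without single libraries, Scn2b was -0.074 to 0.083 and Scn1a -0.028 to 0.26.

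For the shares in the PFC, the mean of same-number differences (replicate block) was 0.138 points for Scn1a (sign turned from -0.86), -0.776 for Scn2a and 0.751 for Scn8a. In the co-culture it was -0.316 for Scn8a, 0.434 for Scn2a, 0.143 for Scn1a and -0.261 for Scn3a, whose sign turned. Co-culture shares without single libraries differed by -0.0299 to 0.112 points for Scn1a, 0.587 to 0.916 for Scn2a, -0.113 to 0.13 for Scn3a and -0.944 to -0.604 for Scn8a. Shares between control PFC and co-culture kept direction and side of the threshold under every alternative run. Scn4b rested on 18 to 49 reads in co-cultures and 0 or 1 in microglia.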
